A study of Salmo salar with 30 samples.

Results

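Transcripts of 3 heart muscle proteins were followed with 10 probes of the Agilent 4x44K salmonid microarray: 3 probes for troponin C of slow skeletal and cardiac muscle, 3 for cardiac myosin-binding protein C and 4 for cardiac muscle alpha actin. They were 10 of the 21136 probes retained, and all 10 were measured on all 30 arrays. The probes were chosen by name from the study's list of probes whose transcript abundance differed between rearing environments, so their environment difference is given here as a description with no test, and tests are given only for comparisons between families. That list rested on a comparison that set family aside, in which spread between families counts against a probe. The number of members that differed between families is therefore not independent of the choice either. The same holds for the number whose environment difference was unequal among families. One of the actin probes, C240R162, was named alpha cardiac muscle 1 in one of the study's tables and larval muscle actin in another.

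Each array held the head RNA of 1 Atlantic salmon (Salmo salar) juvenile at emergence, labelled with Cy5, and a reference pooled from all juveniles, labelled with Cy3. The fish belonged to 3 families of full sibs: X11, with wild Little River parents, and X22 and X35, each with a wild Little River dam and a farmed sire of the Saint John River strain. From the eyed stage on, each family was kept on gravel (enriched) or in bare containers (unenriched), in 1 container per family and environment, and 5 juveniles were taken from each, 15 per environment. Container and group therefore cannot be told apart, and p-values measure the spread between juveniles of 1 container. Heads were cut just behind the operculum and held the brain, the eyes, the heart and muscle of the head, so a lower ratio can come from fewer muscle cells in the head or from less transcript per cell, and these cannot be told apart.

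In striated muscle, troponin C is the calcium-binding subunit of the troponin complex on the thin filament, and calcium binding to it releases the block on the actin-myosin interaction. One vertebrate form of troponin C serves both heart muscle and slow skeletal muscle. Myosin-binding protein C lies on the thick filament, where it binds myosin and modulates cross-bridge cycling, and cardiac alpha actin is the main thin filament protein of the adult heart, and in many vertebrates it is also transcribed in developing skeletal muscle. The names of the troponin C and alpha actin probes therefore do not assign a head transcript to the heart alone. The tissue of the myosin-binding protein C transcripts was not tested.

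All values are log2 ratios of the juvenile to the reference, so 0 is the level of the pool and 1 is a doubling. The median Cy5 signals of the probes ran from 894 for C260R055 to 43443 intensity units for C074R053. C260R055, a myosin-binding protein C probe, was the dimmest member, with Cy5 under the background limit in 11 of 30 juveniles (8 enriched, 3 unenriched) but never in a whole group. C074R053, a troponin C probe, was at the ceiling of the scanner on 1 Cy5 spot (unenriched X35 replicate 4) and 2 Cy3 spots (unenriched X22 replicate 3 and X35 replicate 5). The other 8 probes were above the limit and below the ceiling in every juvenile.

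The troponin C probe C252R157 had the widest separation between juveniles of the 3 troponin probes. Its log2 ratios in the unenriched X11 juveniles were 0.54, 0.81, 0.06, 0.37 and -0.28, against -0.49, -1.15, -0.73, -0.95 and -1.20 in the enriched ones. Within X11 no enriched juvenile reached any unenriched one. In X22 the unenriched juveniles measured 0.04, -1.20, 0.39, -0.75 and -1.03, and the enriched ones -0.57, -0.73, -0.66, -0.95 and -0.97. In X35 the unenriched values were -0.57, -0.92, 0.80, 0.73 and -0.67, and the enriched ones -0.82, -0.83, -0.59, -0.70 and -0.51. In these families 2 unenriched juveniles each stood above their sibs, and the remaining 3 lay in or below the range of the enriched juveniles of the same family.

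The troponin C probe C074R053 showed another pattern, in which X22 was apart. Unenriched X11 juveniles had log2 ratios of 0.19, 0.70, 0.52, 0.58 and 0.18. Those of X35 had 0.37, 0.28, 0.80, 0.56 and 0.05, but those of X22 only -0.79, 0.08, 0.05, 0.03 and -0.24. Enriched juveniles measured -0.55, -0.56, 0.14, -0.07 and -0.35 in X11, 0.05, -0.30, 0.15, -0.19 and -0.23 in X35, and -0.05, -0.12, -0.57, 0.12 and -0.15 in X22. Unenriched juveniles of X11 lay above all enriched X11 juveniles, whereas the X22 groups overlapped. The remaining troponin C probe, C056R089, ranged from -0.05 to 0.23 in unenriched X11, a spread of 0.11 (SD, n = 5), and from -1.02 to 0.19 in unenriched X22, a spread of 0.44 (SD, n = 5).

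The myosin-binding protein C probes were high in a few unenriched juveniles. C146R110 measured 0.46, 0.49, -0.17, 0.57 and -0.14 in unenriched X11 juveniles, -0.30, -0.44, 1.23, -0.17 and -1.11 in unenriched X22, and 0.33, -0.11, 0.76, 0.88 and -0.50 in unenriched X35. Enriched juveniles of X35 measured -0.32, -0.55, -0.05, 0.35 and -0.42, those of X11 -0.30, -0.40, -0.37, -0.72 and -0.35, and those of X22 -1.19, -0.50, -0.66, -1.31 and -1.31. Enriched X22 juveniles were the lowest group for this probe, at -0.99 ± 0.39 (SD, n = 5), and enriched X35 the highest enriched group, at -0.20 ± 0.36 (SD, n = 5).

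C260R055, with the same gene name, reached 1.59, 1.06, 0.43, 0.69 and 0.01 in unenriched X11 juveniles and fell between -0.89 and -0.09 in the enriched ones. In X35 its unenriched values were 0.08, -0.80, 1.32, 1.35 and -0.14, and its enriched values -0.39, -1.07, 0.80, 0.11 and -0.49. The groups of X35 overlapped, with 1 enriched juvenile at 0.80, and the dim spots in both groups limit the precision of its low values. C115R138, the remaining myosin-binding protein C probe, had a median of -0.42 and a highest value of 0.11 over the 15 enriched juveniles, and ran from -0.77 to 0.83 over the 15 unenriched ones (median 0.18).

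The alpha actin probe C153R037 measured 0.81, 0.83, 0.53, 0.88 and -0.30 in unenriched X11, 0.03, -0.04, 1.63, -0.16 and -0.53 in unenriched X22, and 0.16, 0.18, 0.44, 1.23 and 0.24 in unenriched X35. With gravel, X35 juveniles measured -0.38, -0.43, 0.58, 0.73 and -0.25, X11 juveniles -0.32, -0.18, 0.05, -0.68 and -0.32, and X22 juveniles -0.26, -0.56, -0.37, -0.52 and -1.08. A single unenriched X22 juvenile, at 1.63, was the highest of all 30, and the enriched X35 juveniles were split between 2 above 0.5 and 3 below -0.2. The actin probe C147R057 was high in the same 2 enriched X35 juveniles, at 0.86 and 0.58.

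The actin probe C012R013 differed from the other actin probes in X35. It measured 0.52, 1.01, 0.57, 1.07 and 0.30 in unenriched X11 and -0.35, 0.30, 0.82, 0.39 and 0.10 in unenriched X22, but -1.02, -0.69, -0.26, 0.42 and 0.35 in unenriched X35. Enriched X35 juveniles had -0.71, -0.60, 0.23, -0.66 and -0.24, enriched X11 juveniles -0.11, -0.11, -0.40, -1.50 and -0.27, and enriched X22 juveniles -0.43, -0.17, 0.33, -0.20 and 0.08. Only in X11 were the environments free of overlap for this probe. C240R162, the probe with 2 names, ran from -1.36 to 0.14 over the enriched juveniles (median -0.52) and from -0.84 to 1.28 over the unenriched ones (median -0.10).

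**Figure D1:**
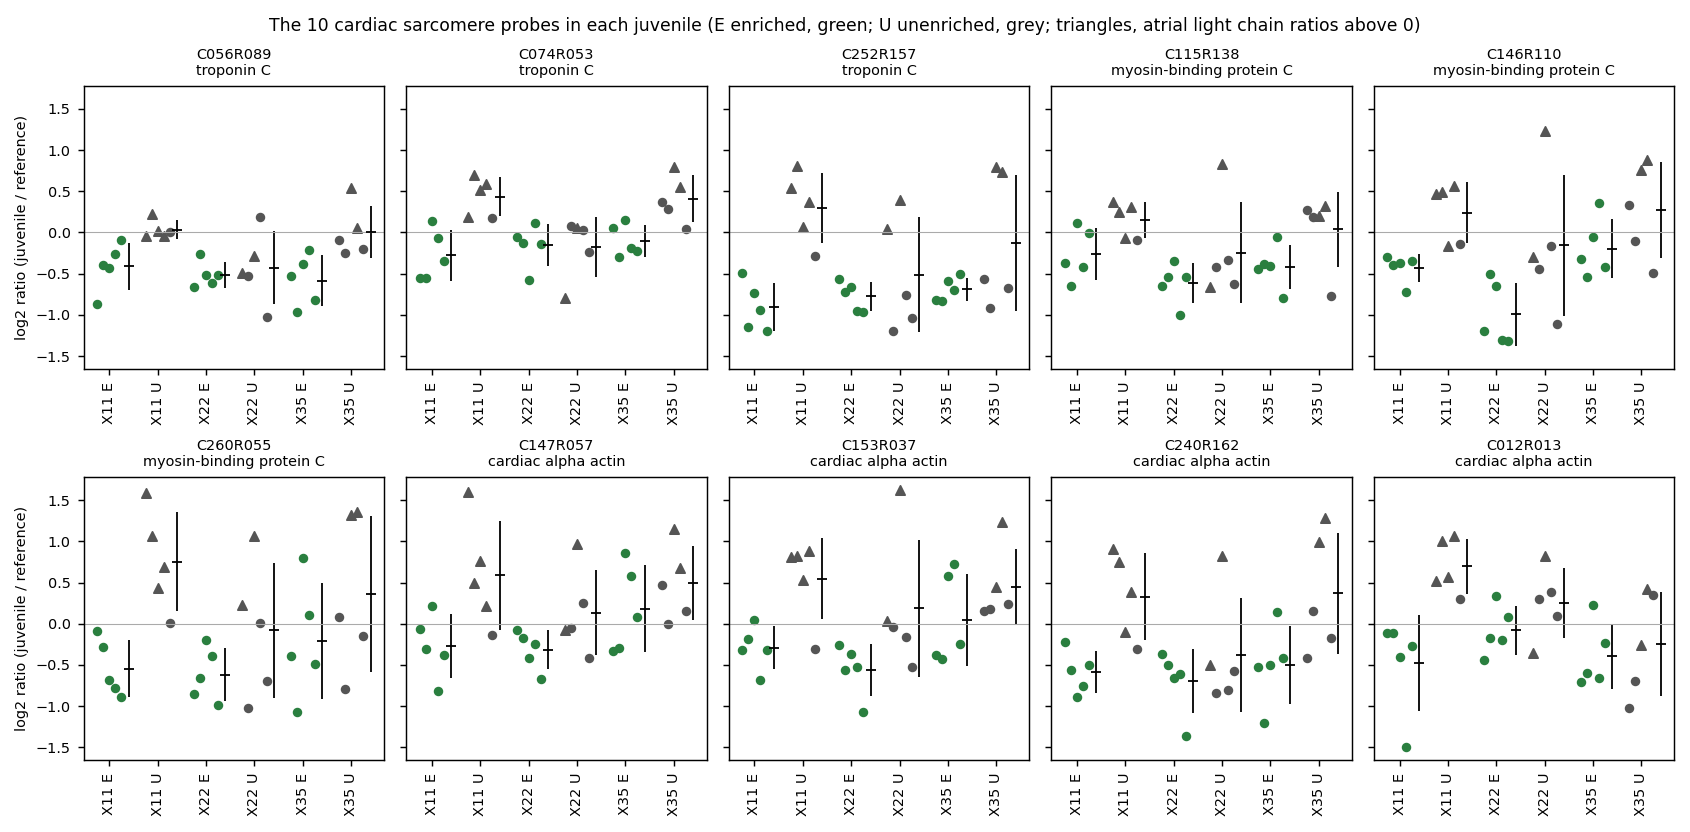
Log2 ratio (y axis) of each of the 10 probes in every juvenile of the 6 groups (x axis), with the mean and SD of each group (n = 5) beside its points. Green points are enriched and grey points unenriched juveniles, and triangles mark the 8 unenriched juveniles with atrial light chain ratios above 0. C252R157 was above 0 in those 8 juveniles and below 0 in the other 22.

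Over all families, the difference between environments was in 1 direction in every probe, which is the direction by which the probes came into the study's list. The log2 difference, enriched minus unenriched, was -0.37 (SE 0.12) to -0.80 (SE 0.24) over the 15 juveniles per environment, with a median of -0.61 over the 10 probes, beside -0.01 over all 21136 probes. As ratios of mean unlogged values, unenriched over enriched juveniles stood at 1.32 for C056R089, 1.76 for C252R157, 1.64 for C146R110, 1.90 for C260R055, 1.64 for C153R037 and 1.77 for C240R162. The gene medians were -0.40 for troponin C, -0.66 for myosin-binding protein C and -0.61 for cardiac alpha actin. No member had all 15 enriched juveniles below all 15 unenriched ones, and none of all probes had (0%).

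Of the 3 families, X11 had the largest median difference. In that family the 10 log2 differences ran from -1.30 to -0.42 with a median of -0.85, and in 6 of 10 probes every enriched juvenile was below every unenriched one, as in 5.98% of all probes. These 6 were all 3 troponin C probes, the myosin-binding protein C probes C146R110 and C260R055, and the actin probe C012R013. In X35 the differences ran from -0.87 to -0.15 with a median of -0.49, and in X22 from -0.84 to 0.02 with a median of -0.35. In neither of these families did any member have every enriched juvenile below every unenriched one, as 0.889% of all probes had in X35 and 1.35% in X22.

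The order of the genes by median difference was not the same in each family. In X22 the troponin C probes had a median log2 difference of -0.09, with C074R053 at 0.02 (SE 0.20), while myosin-binding protein C had -0.54 and actin -0.39. In X35 troponin C came first, with -0.57 for troponin C, -0.47 for myosin-binding protein C and -0.36 for actin. In X11 actin had the largest median, -0.89. Whether these orders differ beyond the replicate error was not tested. The interaction below compares families for each probe and does not compare genes.

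**Figure D2:**
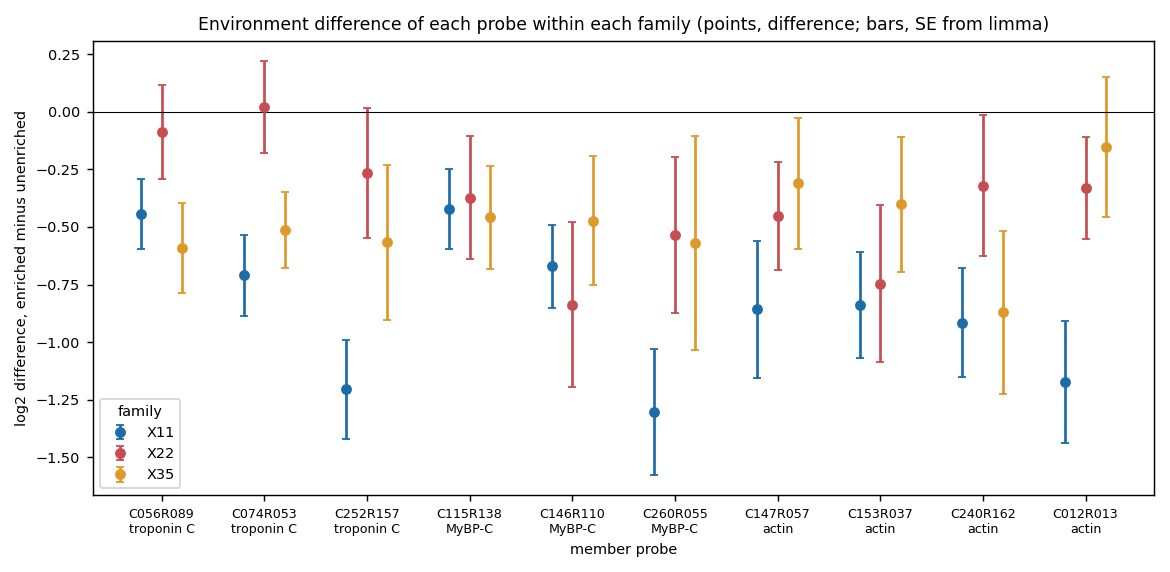
Log2 difference, enriched minus unenriched (y axis), of each probe (x axis) in the families X11, X22 and X35, with the SE from limma as bars (5 juveniles per environment and family). The X11 points lie between -1.30 and -0.42, and the only point above 0 is C074R053 in X22, at 0.02.

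The arrays lay on 8 slides, of which slides 1, 2, 4 and 7 held both environments of a family. Within slide 4, with 1 enriched and 3 unenriched X11 juveniles, the median log2 difference over the 10 probes was -0.50, and all 10 were lower. For X22 it was -0.07 within slide 1 (2 against 2 juveniles, 7 of 10 probes lower) and -0.40 within slide 2 (1 against 3, 10 of 10 lower). For X35 it was -0.08 within slide 7 (3 against 1, 8 of 10 lower). The within-slide medians kept the direction of the whole and were smaller than the family medians in X11 and X35 and in slide 1.

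Families were compared with limma's F-test at a false discovery rate (FDR) of 5% over all retained probes. Averaged over both environments, 0 of 10 probes passed, whereas 27.2% of all probes did. At an unadjusted p under 0.05, 2 of 10 members and 41.2% of all probes passed. C146R110 came nearest, with an adjusted p of 0.0646 and a log2 difference, X22 minus X35, of -0.61 (SE 0.21), and the other 9 members had adjusted p of 0.116 to 0.402. With array quality weights 7 of 10 members passed, beside 43.2% of all probes, and without unenriched X22 replicate 3 it was 4 of 10, beside 29.5%, so no order between the members and the array is read from these counts.

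Among unenriched juveniles, 1 of 10 members passed, C074R053, with an adjusted p of 0.0412, beside 8.51% of all probes. Its mean log2 ratio for X11 was 0.43 ± 0.24, for X35 0.41 ± 0.28 and for X22 -0.17 ± 0.37 (SD, n = 5 each). X11 exceeded X22 by 0.61 (SE 0.18, limma adjusted p = 0.0450), a contrast that 5.46% of all probes passed. X22 minus X35 was -0.59 (SE 0.18, limma adjusted p = 0.0639, passed by 3.41% of all probes), and X11 minus X35 was 0.02 (SE 0.18). In this troponin C probe all 5 X11 juveniles were above the highest X22 juvenile, at 0.08, as were 4 of 5 X35 juveniles. The ratios compared include those with a spot at the scanner's ceiling, in X22 replicate 3 and X35 replicates 4 and 5. The call was lost on leaving out any one of 9 unenriched juveniles: X22 replicates 1, 2, 4 or 5, X11 replicates 2, 3 or 4, or X35 replicates 3 or 4, with adjusted p of 0.0508 to 0.137. No slide held unenriched juveniles of more than 1 family, and with slide as a fixed block, which then rests on the slides shared through enriched juveniles, the adjusted p was 0.574.

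The actin probe C012R013 was the next in unenriched juveniles, with an adjusted p of 0.0734. Its means were 0.70 ± 0.33 in X11, 0.25 ± 0.43 in X22 and -0.24 ± 0.63 in X35 (SD, n = 5 each), and X11 minus X35 was 0.94 (SE 0.28, limma adjusted p = 0.0674, passed by 2.2% of all probes). The other actin probes did not share this order of families: C153R037 had unenriched means of 0.55, 0.19 and 0.45 in X11, X22 and X35, and C240R162 had 0.33, -0.38 and 0.37. At an unadjusted p under 0.05, 5 of 10 members and 28.2% of all probes differed among unenriched families: the 3 troponin C probes and the actin probes C240R162 and C012R013.

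Among enriched juveniles 0 of 10 members passed, beside 14.8% of all probes, and 1 member, C146R110, had an unadjusted p under 0.05, beside 32.5% of all probes. Its X22 minus X35 difference was -0.80 (SE 0.30), and the F-test gave an adjusted p of 0.134. Enriched means of the troponin C probe C252R157 lay close together, at -0.91 ± 0.29 in X11, -0.78 ± 0.18 in X22 and -0.69 ± 0.14 in X35 (SD, n = 5 each), with an adjusted p of 0.850.

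The interaction of family and environment asked whether the environment difference was unequal among families. It passed the FDR in 0 of 10 members and in 0.0615% of all probes, and 2 of 10 members, C074R053 and C012R013, had an unadjusted p under 0.05, as did 15.3% of all probes. For C074R053 the log2 environment difference in X11 minus that in X22 was -0.73 (SE 0.25, limma adjusted p = 0.140, passed by 0.563% of all probes), and for C012R013 that in X11 minus that in X35 was -1.02 (SE 0.40, limma adjusted p = 0.274, passed by 0.0568%). Members' adjusted p for the interaction ran from 0.252 to 0.985.

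The spread between juveniles was wider without gravel in most members. The SD pooled over families was wider in unenriched juveniles for all 10 probes, with a median ratio of 1.59 (1.09 for C012R013 to 3.11 for C252R157), beside a median of 1.00 over the 18626 probes measured on all arrays, of which 50.3% had the wider SD in unenriched juveniles. By family the unenriched SD was the wider one in 10 of 10 members in X22, 8 of 10 in X35 and 6 of 10 in X11. The share of all probes within each family was not computed, and the members share juveniles, so nothing is read from these counts. The X11 exceptions were C056R089, C074R053, C115R138 and C012R013, and those in X35 were C147R057 and C153R037. For C252R157 the pooled SD was 0.67 without gravel and 0.21 with it. Over all 6 groups, the within-group SD of the members had a median of 0.49 and that of all probes 0.34.

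The same juveniles were high for many members. In unenriched X22, replicate 3 had a median of 0.83 over the 10 probes and 9 of them above 0, whereas the other 4 juveniles had medians of -0.60 to -0.07. In unenriched X35, replicates 3 and 4 had medians of 0.78 and 0.71, and the other 3 had -0.16 to 0.12. Unenriched X11 juveniles had medians of 0.53, 0.73, 0.25, 0.48 and -0.11. Of the enriched juveniles, X35 replicates 3 and 4 had medians of 0.05 and 0.03 with 5 of 10 probes above 0, and the other 13 had medians of -0.82 to -0.31.

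**Figure D3:**
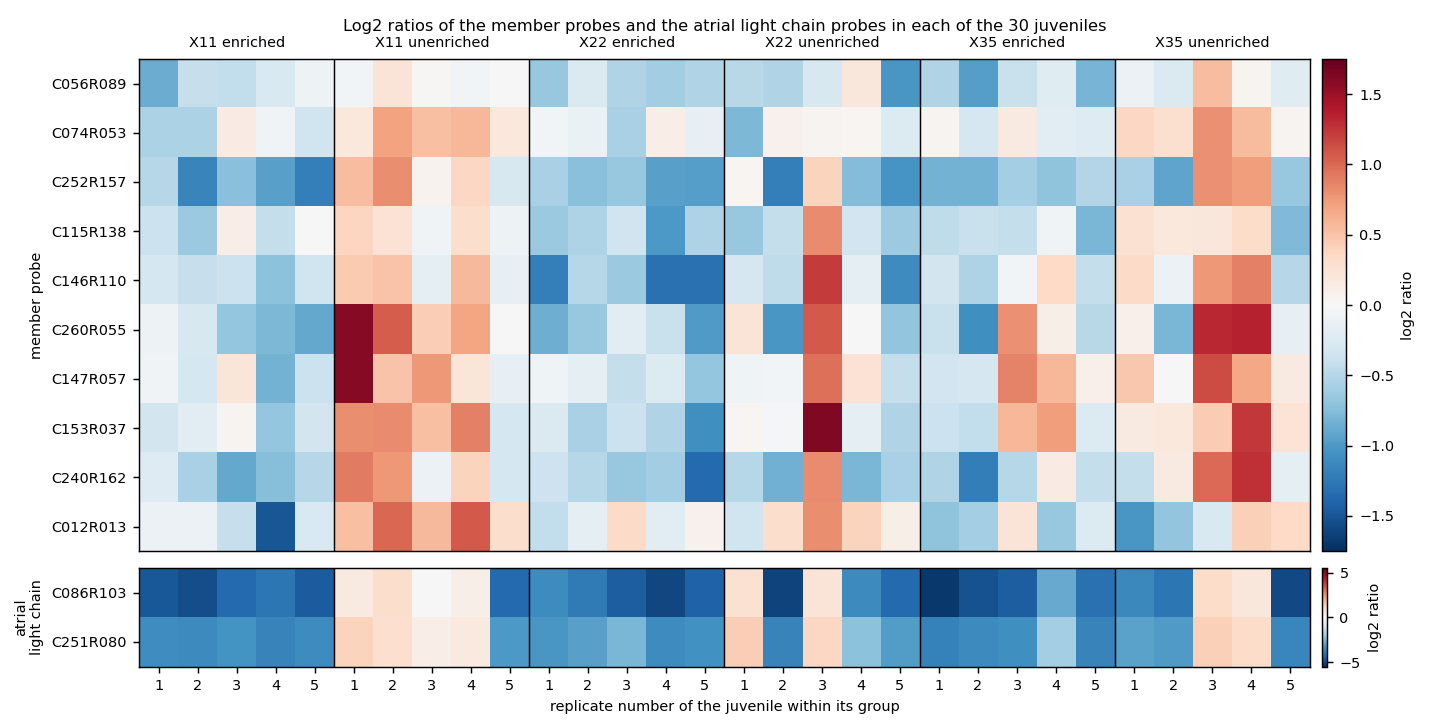
Log2 ratios (colour) of the 10 probes (upper panel, rows) and of the atrial light chain probes C086R103 and C251R080 (lower panel, on a wider colour scale) in each of the 30 juveniles (columns, by group and replicate). Unenriched X22 replicate 3 and unenriched X35 replicates 3 and 4 stand out from their sibs, with member medians of 0.83, 0.78 and 0.71.

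Within groups, after subtracting the mean of each of the 6 groups, all 45 pairs of members correlated above 0 over the 30 juveniles, with a median Pearson's r of 0.44 (0.09 to 0.82). These correlations are given as a description with no test. Probes that share a juvenile also share its array, its RNA and the amount of muscle in its head. The closest pair joined a troponin C and a myosin-binding protein C probe, C252R157 and C260R055 (r = 0.82, Spearman's rho = 0.79, and r = 0.76 without the 2 farthest juveniles). In unenriched juveniles the ranges of both were apart between the 2 sets described below with the atrial light chain probes. C146R110 and C153R037, from myosin-binding protein C and actin, had r = 0.81 (rho = 0.73, 0.68 without the 2 farthest). The myosin-binding protein C probes C115R138 and C146R110 had r = 0.81 (rho = 0.72, 0.65 without the 2 farthest).

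Probes with 1 gene name had a median r close to that of probes with different gene names. It was 0.46 over 12 pairs with the same name and 0.44 over 33 pairs with different names. Gene here means the name the study gave a probe, with C240R162 counted as cardiac alpha actin. Whether probes with 1 name read the same transcript was not tested. The median r for the same and for different names was 0.39 and 0.27 over the enriched and 0.60 and 0.54 over the unenriched juveniles. Troponin C probes had only 0.20 to 0.42 with each other, whereas myosin-binding protein C probes had 0.41 to 0.81 and actin probes 0.33 to 0.78. C056R089, C074R053 and C012R013 were the least related members, with an r above 0.5 in 1 of the 24 pairs that held at least 1 of them, whereas 18 of the 21 pairs among the other 7 were above 0.5. For scale, 0.376% (C056R089) to 5.34% (C240R162) of the 18616 other probes measured on all arrays had an r above 0.5 with a given member.

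Among the members, the median correlation was higher over the unenriched than over the enriched juveniles. Over the 15 unenriched juveniles, with family means removed, 28 of 45 pairs had r above 0.5 and the median was 0.54, and over the 15 enriched ones 13 of 45 had and the median was 0.31. C252R157 and C260R055 had r = 0.94 without gravel and 0.34 with it. Among unenriched juveniles the ranges of both were apart between 2 sets of juveniles, divided by atrial light chain probes as described below. No enriched juvenile was in the high set. C260R055 was also under the Cy5 limit in 2 or 3 of 5 enriched juveniles of each family. The part of either in these 2 values was not tested. The actin probes C147R057 and C153R037 went the other way, with 0.66 without gravel and 0.89 with it. The shares of other probes given above for scale were over both environments together. The share within each environment was not computed, so nothing about the environments is read from the 2 counts of pairs. Whether the correlations differ between environments was not tested.

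**Figure D4:**
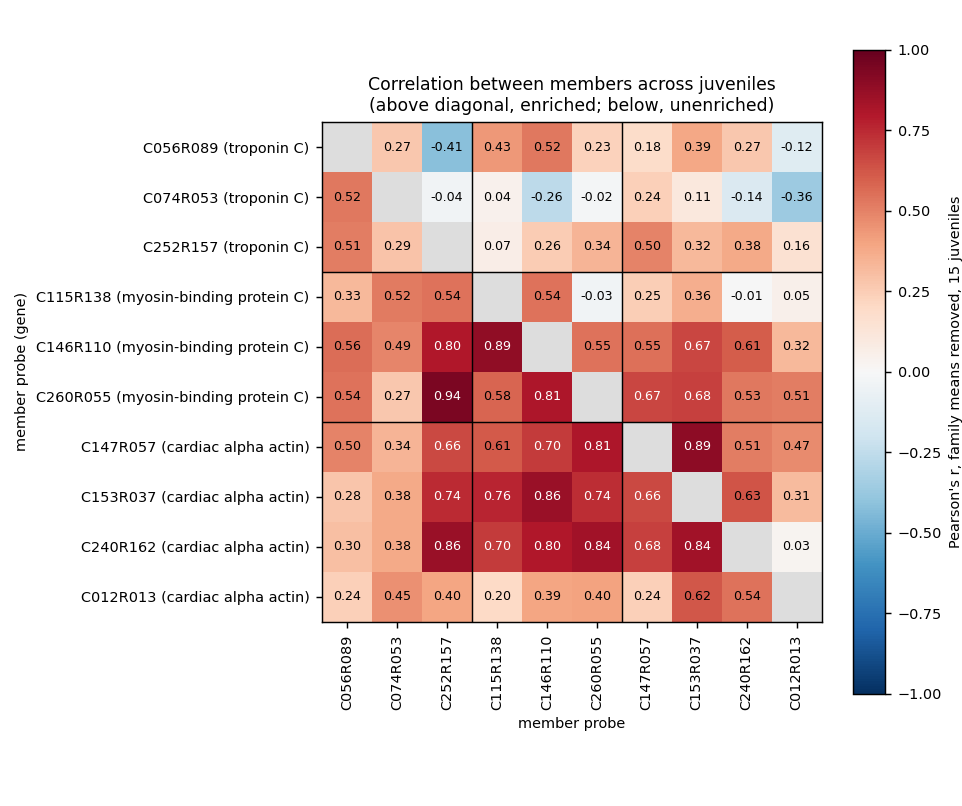
Pearson's r (colour and digits) between pairs of the 10 probes across juveniles, with family means removed, over 15 enriched juveniles (above the diagonal) and 15 unenriched ones (below it). Lines part the 3 genes. C252R157 and C260R055 have r = 0.94 in unenriched and 0.34 in enriched juveniles.

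Probes named for atrial myosin light chains, subunits of the motor protein myosin, also differed between juveniles. Not all juveniles high for them were high for the members. Unenriched X22 replicate 1, high for both probes, had a member median of -0.32. The probes were C086R103 (myosin light polypeptide 4) and C251R080 (atrial regulatory light chain), and both fell into 2 separate sets of juveniles. Atrial is used here as part of a name. The study's annotation of C086R103 included the assembly of ventricular myofibrils, so the names do not assign these transcripts to the atrium alone. In 8 unenriched juveniles (X11 replicates 1 to 4, X22 replicates 1 and 3, X35 replicates 3 and 4) the log2 ratio was 0.02 to 0.99 for C086R103 and 0.37 to 1.34 for C251R080. In the other 22, all 15 enriched ones included, it was -5.33 to -2.75 and -3.72 to -1.85. C086R103 was under the Cy5 limit in 20 of these 22 and C251R080 in none.

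Troponin C probe C252R157 followed this division in every juvenile. It was 0.04 to 0.81 in the 8 juveniles with high atrial light chains, all above every enriched juvenile, -1.20 to -0.28 in the other 7 unenriched juveniles, and -1.20 to -0.49 in the 15 enriched ones. Of those 7, 6 lay within the range of the enriched juveniles. The myosin-binding protein C probe C260R055 was 0.23 to 1.59 in the 8, -1.02 to 0.08 in the 7 and -1.07 to 0.80 in the enriched juveniles. The actin probe C153R037 was 0.03 to 1.63, -0.53 to 0.24 and -1.08 to 0.73 in the same order. For C146R110, C260R055, C147R057 and C153R037, all 7 unenriched juveniles with low atrial light chains lay within the range of the enriched juveniles. Not all of the 8 with high atrial light chains were above that range. Of the 8, it was exceeded by 6 for C146R110, 5 for C260R055, 5 for C153R037 and 3 for C147R057.

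Ranges of the 8 and the 7 unenriched juveniles were apart only for C252R157 and C260R055. They overlapped for every other member. C074R053 was -0.79 to 0.80 in the 8 juveniles and -0.24 to 0.37 in the 7, of which 3 were above every enriched juvenile. Its lowest value of all 30, -0.79, belonged to unenriched X22 replicate 1, whose atrial light chain ratios were 0.82 and 1.34. C056R089 was -0.49 to 0.54 in the 8 and -1.02 to 0.19 in the 7. C115R138 was -0.66 to 0.83 in the 8 and -0.77 to 0.27 in the 7. For C012R013 the ranges were -0.35 to 1.07 and -1.02 to 0.39, and for C240R162 -0.50 to 1.28 and -0.84 to 0.15.

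Because of the division no correlation with the atrial light chains is given over all juveniles. Within each set the correlation was taken with C251R080 alone, since C086R103 was under the limit in most juveniles of the low set. In the 22 juveniles with low ratios it ran from r = -0.03 (C074R053) to r = 0.38 (C056R089), and C252R157 had r = 0.24 (rho = 0.27, and 0.29 without the 2 farthest). In the 8 with high ratios it ran from r = -0.62 (C012R013, rho = -0.76, and -0.83 without the 2 farthest) to r = 0.40 (C260R055, rho = 0.21, and -0.30 without the 2 farthest). The part of the light chain difference in the members' differences was not tested.

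**Figure D5:**
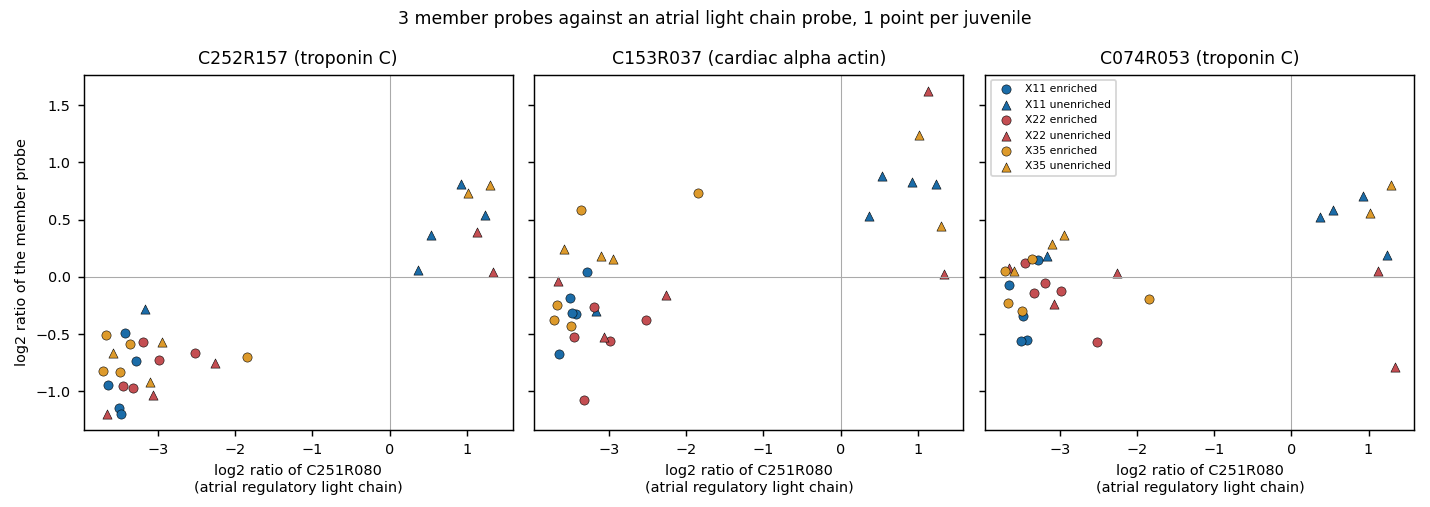
Log2 ratio of C252R157, C153R037 and C074R053 (y axis) against that of the atrial light chain probe C251R080 (x axis), 1 point per juvenile, coloured by family, with circles for enriched and triangles for unenriched juveniles. The 8 juveniles at the right have C251R080 at 0.37 to 1.34, and C252R157 was above 0 in each of them.

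Values of the other marker lists are given over all families as a description with no test. Only probes that the study listed as responsive to environment had names. The list for heart muscle in general held C145R100 (myosin heavy chain) and C238R116 (ankyrin repeat domain-containing protein 1, a nuclear stress-response protein of heart and skeletal muscle). Both had negative differences, with a median log2 difference of -0.56. Their mean ratios were -0.47 to 0.64 in the unenriched and -1.07 to -0.15 in the enriched juveniles. The names given here do not mark heart muscle alone. C029R109 and C233R135, also named myosin heavy chain, were not on this list and had differences of -0.43 and -1.11. All 3 probes of the list for fast skeletal muscle had negative differences (median -0.79), with mean ratios of -0.93 to 0.97 without gravel and -1.42 to 0.08 with it. They were C089R008 (myosin-binding protein fast-type-like), C169R138 (troponin skeletal muscle) and C200R008 (parvalbumin-7-like). Only the name of C089R008 states fast muscle. The slow skeletal troponin probe C020R081 was at -0.30. Of 10 neuronal probes 7 had positive differences (median of the 10, 0.52). The mean ratio of the 10 was -0.81 to 0.15 without gravel and -0.21 to 0.52 with it. The 4 lens probes had a median of -0.10 and the 3 blood probes -0.12. The part of these tissues in the members' values was not tested.

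Another 50 retained probes carried names of sarcomere genes in the study's tables, and 2 smooth muscle light chain probes were counted apart. Among the 50 were the 2 atrial light chains and, from the marker lists above, C145R100 (list for heart muscle in general), C089R008 and C169R138 (fast skeletal) and C020R081 (slow skeletal). The lists are therefore not separate sets. Names were given only for probes that the study listed as responsive to environment, so the 50 are no independent set for that comparison. Over all families 47 of 50 were lower in enriched juveniles, with a median log2 difference of -0.43, beside -0.61 for the 10 members. By family the median was -0.24 (X35), -0.50 (X22) and -0.70 (X11). Both smooth muscle probes were higher in enriched juveniles, with a median of 0.32.

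Family differences passed the FDR in 7 of the 50 over both environments (14% beside 27.2% of all probes). Among unenriched juveniles they passed in 0 of 50 (beside 8.51%) and among enriched ones in 7 of 50 (14% beside 14.8%). The interaction passed in 0 of 50, beside 0.0615% of all probes. In each of the 7 that passed over both environments the largest of the 3 contrasts was against X35, which was lower in 3 and higher in 4. The 5 with the largest contrasts were C254R089 (tropomyosin alpha-3 chain, of the family that lies along the thin filament and holds troponin), with X22 minus X35 at 1.77, C177R095 (titin, the spring that spans the sarcomere), with X11 minus X35 at -0.77, C025R008 (tropomyosin alpha-4 chain) at 0.76, C200R100 (tropomyosin 4) at 0.71 and C204R131 (xin actin-binding repeat-containing protein 2) at -0.60 for X11 minus X35, with adjusted p from limma's F-test of 0.0283, 0.000873, 0.0232, 0.0175 and 0.000955. Cy5 of C254R089 was under the background limit in 8 of 30 juveniles, and that of C177R095, C025R008, C200R100 and C204R131 in 0. Over both environments none of the 10 members passed.

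The probes most like each gene's mean across juveniles, with group means removed, were searched among 2509 named probes measured on all arrays. For cardiac alpha actin they were C211R037 (ubiquitin thioesterase, r = 0.91), C147R072 (asph protein, r = 0.86), C172R117 (calcineurin B homologous protein 2, r = 0.83), C165R018 (ubiquitin carboxyl-terminal hydrolase 28-like, r = 0.82) and C121R053 (kelch repeat and BTB domain-containing protein 12, r = 0.82). For myosin-binding protein C they were C147R072 (r = 0.83), C200R114 (transitional endoplasmic reticulum ATPase-like, r = 0.82), C172R117 (r = 0.82), C135R074 (kelch repeat and BTB domain-containing protein 10-like, r = 0.82) and C175R023 (RNA-binding protein fox-1 homolog 1-like, r = 0.82). C147R072 and C172R117 were thus on the lists of both genes.

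For troponin C the list held C125R129 (plastin-1, r = 0.80), C214R162 (kin of irre-like protein 1-like, r = 0.76) and C147R072 (r = 0.75), together with the atrial light chains C086R103 and C251R080, for which no r is given because of their 2 sets of juveniles. The lowest correlations belonged to C106R010 (caspase 3, r = -0.73) for troponin C, C104R072 (iron-responsive element-binding protein 2, r = -0.76) for myosin-binding protein C and C141R031 (peptidyl-prolyl cis-trans isomerase H, r = -0.80) for actin. These r were the extremes of many probes, each over 30 juveniles, and carry no test.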

How the data were processed

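The authors deposited scanner intensity values without normalization (spot and local background medians from Imagene) and a table of log2 ratios for 21117 probes, background-subtracted, loess-normalized, filtered and imputed. Here the authors' steps were repeated from the intensities without imputation: log2 Cy5/Cy3, loess within arrays (span 0.4, 5 iterations), removal of spots flagged 1 or 2 or with Cy3 under the background mean + 2 SD, and of probes missing on 8 or more arrays. This kept 21136 probes. Each array correlated with its column of the authors' table at 0.997 or above, and 48.0 to 53.7% (Cy3) and 28.2 to 42.9% (Cy5) of spots were above the limit. The number of arrays limits the precision. Dyes were never exchanged. R 4.3.3 with limma 3.58.1 fitted all 6 groups together (eBayes, two-sided, Benjamini-Hochberg over all probes, FDR 5%), and an environment difference used its own juveniles. SEs are limma's. The fits were tested on simulated data. Members and gene lists were chosen with earlier results of these data known. Likeness named the 5 most and 1 least correlated named probes per gene, and the sarcomere list the 5 largest contrasts. Probe names came from the study's tables, and probe sequences were not used here. Alternatives are described in the closing section.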

Additional observations from a re-analysis of the deposited data

Results flagged for a closer look

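In 8 of 60 groups of 5 juveniles (10 probes in 6 groups), 1 juvenile lay far from the other 4, with a gap to its nearest sib of over 0.71 of the group's range. For normally distributed values chance alone gives about 1 in 20 such groups. The share over all probes was not computed, and the probes share juveniles. Unenriched X22 replicate 3 was the high one for C115R138 (myosin-binding protein C) at a log2 ratio of 0.83, with sibs at -0.66 to -0.34, for C153R037 (actin) at 1.63, with sibs at -0.53 to 0.03, and for C240R162 (actin) at 0.83, with sibs at -0.84 to -0.50. Unenriched X35 replicate 4 was high for C153R037 at 1.23, with sibs at 0.16 to 0.44, and unenriched X35 replicate 5 was low for C115R138 at -0.77, with sibs at 0.18 to 0.32. Enriched X11 replicate 4 was low for C146R110 (myosin-binding protein C) at -0.72, with sibs at -0.40 to -0.30, and for C012R013 (actin) at -1.50, with sibs at -0.40 to -0.11. For C056R089 (troponin C), unenriched X11 replicate 2 was high at 0.23, with sibs at -0.05 to 0.02.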

How the results depend on the processing

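Results were recomputed with normexp background correction, the deposited table, scaling between arrays, 2 other filters on dim spots, probes on all arrays only, array weights, slide as a random or fixed block, the replicate number as a block, tank means where possible, and without each juvenile in turn. The count of members that differed between families over both environments was 0 (27.2% of all probes). It was 7 with array weights (43.2%), 1 with the replicate block (27%) and 0 to 4 on leaving out 1 juvenile. It was 4 without unenriched X22 replicate 3 (29.5%), and 1, C146R110, without unenriched X35 replicate 5 (23.4%) or enriched X22 replicate 2 (25.2%). Among unenriched juveniles the count of 1 (8.51% of all probes) became 0 with normexp (4.33%), the deposited table (9.12%) and slide as a fixed block (1.08%). With array weights it was 6 (24.2%), and on leaving out 1 juvenile it was 0 to 2. It was 2 without unenriched X22 replicate 3 (9.51%) or enriched X11 replicate 4 (7.99%). For C074R053 the adjusted p was 0.0958 with normexp and 0.0572 in the deposited table, and over these settings 0.0133 to 0.574. The replicate numbers did not pair the juveniles (75 pairs with 1 number, median r -0.0081, from -0.257 to 0.523, 15 over 0.1), although between the X35 groups 4 of 5 pairs were over 0.1 (0.0358 to 0.523), and with the replicate block C146R110 had an adjusted p of 0.0426. No cause of these changes was tested. The interaction and the family difference in enriched juveniles stayed at 0 members under every setting run. The share of all probes ran from 0.00473% to 1.89% for the interaction and from 4.29% to 27.6% for the enriched juveniles. No result reversed: the median environment difference of the 10 probes was -0.61 to -0.50 over all families, -0.86 to -0.50 in X11, -0.35 to -0.18 in X22 and -0.59 to -0.08 in X35 over the settings, the last with slide as a fixed block, which rests on slide 7 in that family. Without any 1 juvenile it was -0.66 to -0.54 over all families, -1.05 to -0.75 in X11, -0.47 to -0.15 in X22 and -0.65 to -0.34 in X35. The median correlation between members was 0.31 over the enriched and 0.54 over the unenriched juveniles alone. It lay between these under the other normalizations and filters, and was 0.37 to 0.49 without any 1 juvenile.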
